A study of Mus musculus with 9 samples.

Results

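The 10 interferon-induced antiviral effector genes followed across rapamycin-sensitive and rapamycin-resistant cells were Ifit1, Ifit2, Ifit3, Rsad2, Mx1, Mx2, Bst2, Xaf1, Trim30a and Ifi44. The members are the probe sets whose only gene symbol in the platform annotation is one of these 10 names, which gave 13 of 45037 probe sets, for 9 of the 10 genes. Ifi44 was not analysed here. RNA came from BC3H1, a mouse brain tumour line with muscle-like properties. The study had 3 groups of 3 arrays. Sensitive cells received DMSO for 24 h (RS_DMSO), other sensitive cells received 100 nM rapamycin for 24 h (RS_Rap), and the line RR1, grown out of BC3H1 by 6 months in 1 uM rapamycin, was kept in 1 uM rapamycin (RR_Rap). Rapamycin inhibits the growth-controlling kinase complex mTORC1. The resistant group is 1 line, it was always in drug, and its dose and exposure differ from those of the treated sensitive cells, so line, dose and time cannot be told apart. Separate dishes for the 3 arrays of a group are not stated, so every p-value rests on a spread between arrays that may be only technical.

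Interferons are secreted proteins that signal through receptors and JAK kinases to STAT and IRF transcription factors, which bind a promoter sequence called the interferon-stimulated response element (ISRE). The genes switched on in this way block viruses at different steps. IFIT proteins bind viral RNA and hinder its translation, viperin (Rsad2) makes a nucleotide that stops viral RNA synthesis, Mx proteins are dynamin-like GTPases that trap viral components, and tetherin (Bst2) holds budding virus at the cell surface. Xaf1 binds and opposes the apoptosis inhibitor XIAP, and Trim30a is a TRIM protein that restrains Toll-like receptor signalling. Many cells keep such genes at a basal level without infection, through low tonic interferon signalling.

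The promoters are shown because 5 of the member genes carry a match to the ISRE core. Ifit2, Xaf1 and Ifi44 carry none in the window searched, and an element outside it would be missed. In the resistant line against DMSO cells Ifit2 changed by -0.15 and the brighter Xaf1 probe set by -6.50 on the log2 scale. Whether a match goes with the size of a change was not tested. Promoter sequences were taken from RefSeq (GRCm38.p6), which matched 8 of the 10 genes; Mx1 and Mx2 had no entry. The ISRE core was searched as GAAA, any 2 bases and GAAA, and the gamma-activated site (GAS) as TTCNNNGAA on both strands in the 250 bases before each annotated start. Of 32851 promoters of all genes, 2.98% held an ISRE core and 7.02% held a GAS. Matches are in capitals, and each stretch runs 5′ to 3′ on the strand of its gene.
Ifit1 (chr19:34640759-34640838, + strand): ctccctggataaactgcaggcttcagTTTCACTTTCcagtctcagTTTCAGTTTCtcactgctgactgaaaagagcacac
Ifit3 (chr19:34583349-34583428, + strand): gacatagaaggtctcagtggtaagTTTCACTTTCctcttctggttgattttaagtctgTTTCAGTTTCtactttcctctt
Bst2 (chr8:71537553-71537632, - strand): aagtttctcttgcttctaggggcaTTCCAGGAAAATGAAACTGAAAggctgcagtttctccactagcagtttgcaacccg
Rsad2 (chr12:26456523-26456602, - strand): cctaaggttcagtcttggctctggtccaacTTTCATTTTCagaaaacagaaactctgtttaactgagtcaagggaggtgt
Trim30a (chr7:104465194-104465273, - strand): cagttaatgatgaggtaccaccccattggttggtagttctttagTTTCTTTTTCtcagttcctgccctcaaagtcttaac
Ifit2 (chr19:34550444-34550523, + strand): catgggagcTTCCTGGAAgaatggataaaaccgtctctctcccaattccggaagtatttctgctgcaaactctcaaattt

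The Ifit1 and Ifit3 stretches each hold the same pair of matches, TTTCACTTTC followed by TTTCAGTTTC. They begin 104 and 85 bases before the Ifit1 start and 156 and 122 bases before the Ifit3 start. In Bst2 a pair of ISRE cores overlap one another, and the first also overlaps a GAS, so the capitals there mark 3 matches in 1 run. Rsad2 and Trim30a have 1 match each, beginning 120 and 36 bases before the start; the table's other Trim30a start has none. Ifit2 has a GAS 241 bases before 1 of its 2 annotated starts and no ISRE core before either, and Xaf1 and Ifi44 have no match to either motif in this window. Matches in Ifit1, Ifit3, Rsad2 and Trim30a lie on the opposite strand and so read TTTC, any 2 bases and TTTC here. A match is a description of letters, not a bound site.

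**Figure D1:**
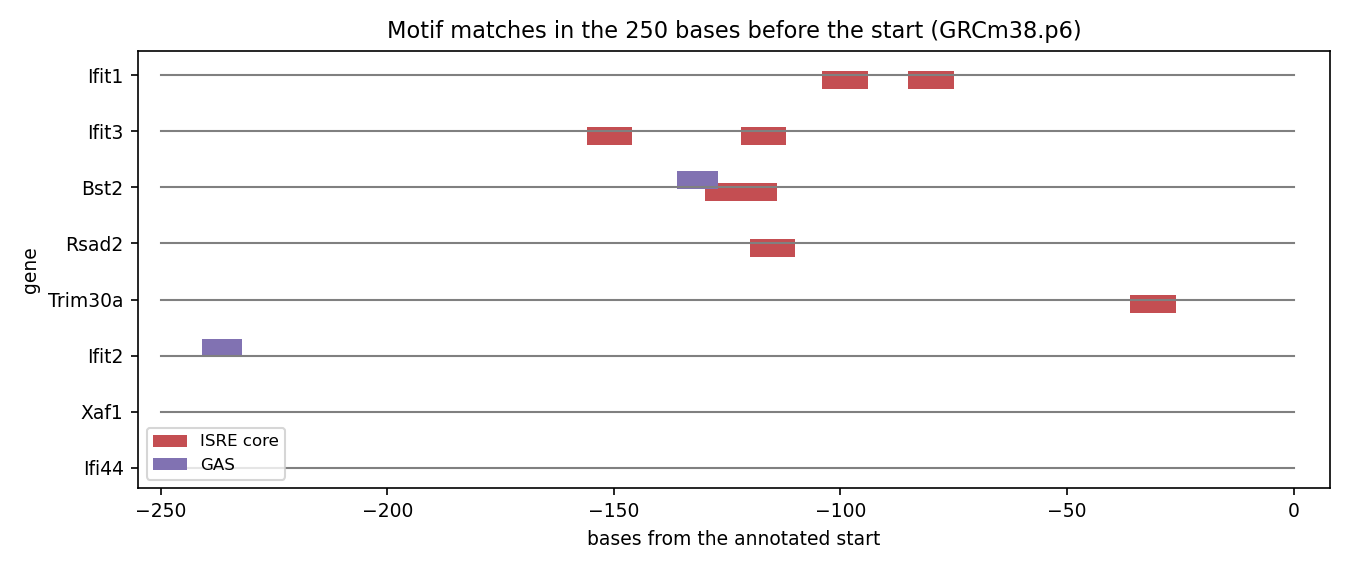
Positions of ISRE core (red) and GAS (purple) matches in the 250 bases before the annotated start; the x axis is distance from the start in bases, and each line is 1 gene, with its alternative starts superimposed. Ifit1, Ifit3, Bst2, Rsad2 and Trim30a carry an ISRE core, Bst2 also carries a GAS, Ifit2 carries only a GAS, and Xaf1 and Ifi44 carry neither.

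On the arrays, the median signal was 33.3 to 44.2 on 8 of them and 66.0 on the third DMSO array, which stands apart; member results that change without that array are given with both values. For Actb, the gap on the log2 scale from its 3-prime to its 5-prime control probe set, a measure of RNA quality, was 0.15 to 0.22 on the sensitive arrays and 0.32 to 0.35 on the resistant arrays; for Gapdh the group means were -0.31, -0.36 and -0.29. Smooth muscle markers were present in all groups, with 9, 9 and 7 of 10 above the filter limit in DMSO, sensitive rapamycin and resistant cells, and the skeletal markers at 6, 5 and 6 of 10. The skeletal count hides a change of genes in both directions from DMSO to resistant cells. Mean signals rose from 25.4 to 403 for Tnnt1, 9.64 to 214 for Tnnc2, 6.50 to 98.9 for Myog and 26.5 to 77.4 for Ckm. They fell from 529 to 15.1 for Chrna1, 343 to 136 for Chrnb1 and 317 to 71.1 for Acta1. Acta1 was already lower in sensitive rapamycin cells, at 145. The summed smooth muscle signal was 38418 to 49453, 48898 to 51419 and 17242 to 19024. The summed skeletal signal was 1229 to 1379, 1013 to 1161 and 1011 to 1092 in the same group order. Of the leukocyte markers, 7, 5 and 5 of 11 were above the limit, with summed signals of 928 to 1447, 858 to 907 and 407 to 524; Cd14 was the brightest of them in the sensitive groups, at 607 and 425, and stood at 145 beside Csf1r at 146 in the resistant line, and Ptprc (CD45), which defines leukocytes, had a mean signal of 29.1, 12 and 6.41. Endothelial markers above the limit were 2, 2 and 1 of 6, and glial and neuronal ones 6, 6 and 5 of 9. The Actb difference, the smooth muscle sum, these skeletal markers (Acta1 only in part) and the leukocyte sum move with the resistant group. Their part in the results that follow was not tested. All 13 member probe sets passed the filter, a mean signal of about 22.2 over the arrays on the log scale used, so none was dropped; 6 had group means above that limit in all 3 groups and 7 only in the sensitive cells.

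In sensitive cells, 24 h of rapamycin raised Ifit1, Ifit3 and Bst2, and less firmly raised the brighter Xaf1 probe set and lowered Ifit2. The largest rise was in Ifit3, to 2.38 times its DMSO signal. Changes are log2(signal + 16) differences ± standard error, and a call is a Benjamini-Hochberg adjusted p under 0.05 in a limma fit of 27022 probe sets. The Xaf1 call was lost in 10 and the Ifit2 call in 4 of 19 alternative runs, and those of Ifit1, Ifit3 and Bst2 in none. The dim Xaf1 probe set was not called (0.19 ± 0.33, adjusted p = 0.735, limma). Of the 13 member probe sets 4 were called higher and 1 lower, against 16% and 12% of all tested probe sets, and 28% either way. The rapamycin arrays lay above all DMSO arrays for 6 and below them for 4 of the 13, against 22.3% and 15.7% of all. Called members numbered 4 without the third DMSO array, 3 without the second DMSO array and 3 without the second rapamycin array. The median member change was 0.35, against 0.04 over all tested probe sets.

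In the resistant line, all members but Ifit2 were lower than in DMSO cells. The largest changes were in Xaf1, Trim30a, Ifit3 and Ifit1. The resistant signal was at or near the filter limit for many members. No resistant array was above it for 3 probe sets and 1 was for 5, both Trim30a and the brighter Xaf1 probe sets among them. The size and order of their changes therefore depend on the pseudocount. Only the direction held in every alternative run, and the Mx1 call was lost in 2 of 19. The brighter Xaf1 and Trim30a probe sets changed by -6.50 and -6.39 with a pseudocount of 16, by -7.40 and -8.01 with 1 and by -5.28 and -4.80 with 64; the mean of both Xaf1 probe sets changed by -3.90, less than Ifit3 (-4.84) and Ifit1 (-4.49). Of 13 probe sets 12 were called lower, against 22% of all tested probe sets, and none was higher, against 21.7%; 43.7% were called either way. The resistant arrays lay below all DMSO arrays for 12 and above them for none, against 26.5% and 25.9%. The median member change was -3.36, against -0.05 over all. On the scale with 16, changes beyond -4 were seen in 64 of the 27022 probe sets, and 5 of those 64 belong to members. The genes lie apart in the genome, with Rsad2 on chromosome 12, Mx1 and Mx2 on 16, Bst2 on 8, Xaf1 on 11, Trim30a on 7 and the Ifit genes on 19. Less RNA per cell and fewer cells with the transcript cannot be told apart in these arrays.

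Between the rapamycin groups, 11 of 13 member probe sets were called lower in the resistant line, and none higher, against 25.8% and 21.9% of all (47.7% either way), with a median of -2.94 against -0.08. Ifit2 and Mx1 did not pass. Without the third DMSO array 12 were called, with Mx1 among them (adjusted p = 0.0375, limma). The resistant arrays lay below the sensitive rapamycin arrays for 12 of 13 and above them for Ifit2, against 32.4% and 26.6%. This comparison shares its resistant arrays with the one above and its sensitive arrays with the drug comparison, so its values follow from those and are not separate evidence.

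**Figure D2:**
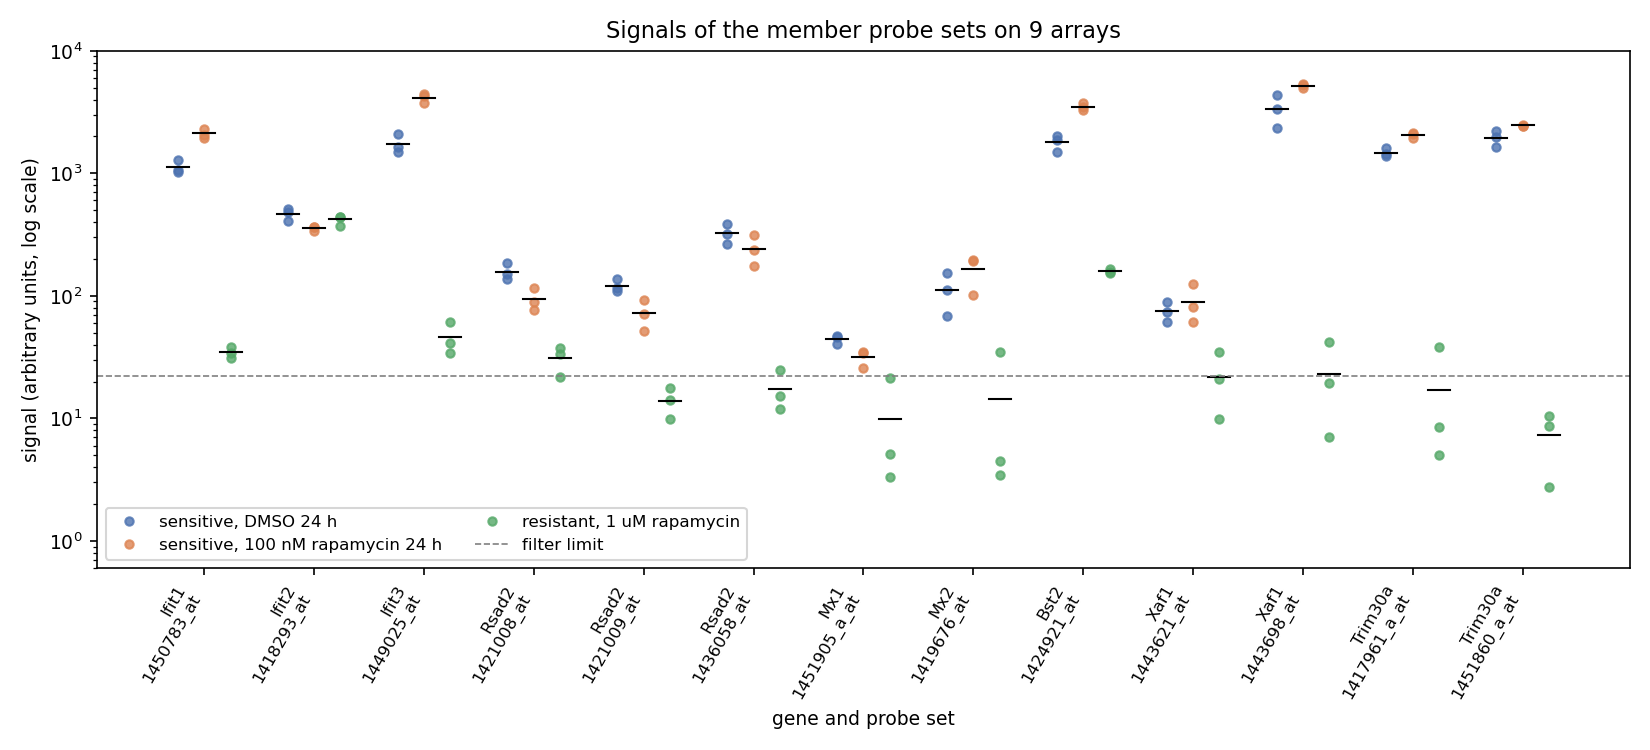
Signal of each member probe set on every array (points; log scale, arbitrary units) with the group mean as a black line; the dashed line is the filter limit of 22.2. Resistant arrays (green) lie below all sensitive arrays for each probe set except Ifit2, where the 3 groups lie between 341 and 512.

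Among the IFIT genes, Ifit1 (probe set 1450783_at), which binds viral RNA through its capped end, had signals of 1296, 1026 and 1067 in DMSO cells, 2317, 2070 and 1958 in sensitive rapamycin cells, and 38.5, 31.3 and 34.5 in the resistant line. The 3 groups do not overlap: rapamycin arrays are highest, resistant arrays lowest. The mean went from 1130 ± 146 (SD, n = 3) to 2115 ± 184 with rapamycin, a log2 change of 0.90 ± 0.11 (adjusted p = 7.94e-06, limma), and to 34.8 ± 3.61 in the resistant line, 32.5 times lower than in DMSO cells (-4.49 ± 0.11, adjusted p = 1.3e-14).

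Ifit3 (1449025_at), a partner of the other IFIT proteins in RNA-binding complexes, gave 2086, 1494 and 1638 in DMSO cells, 4396, 3735 and 4271 with rapamycin and 41.6, 34.5 and 61.7 in the resistant line. The order is that of Ifit1, again with no overlap. The rise with rapamycin was 1.25 ± 0.14 (adjusted p = 3.41e-06, limma). The resistant mean of 45.9 ± 14.1 was 37.9 times lower than the DMSO mean of 1740 ± 309 (-4.84 ± 0.14, adjusted p = 8.25e-14, limma).

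Ifit2 (1418293_at), an IFIT protein linked to apoptosis and to control of RNA viruses in the nervous system, gave 512, 485 and 411 in DMSO cells, 363, 341 and 362 with rapamycin, and 373, 443 and 444 in the resistant line. Rapamycin arrays lie below all others, and resistant and DMSO arrays overlap. It fell by 0.38 ± 0.11 on the log2 scale in sensitive cells (adjusted p = 0.0155, limma). That call was lost without the first DMSO array (adjusted p = 0.074), the second DMSO array or the second rapamycin array (0.054 each), and with no trend (0.0505). Without the third DMSO array the change was -0.47 (adjusted p = 0.00366, limma). The resistant line differed from DMSO by -0.15 (95% interval -0.39 to 0.08, adjusted p = 0.29) and from the sensitive rapamycin cells by 0.23 (-0.01 to 0.46, adjusted p = 0.105, limma). The latter was called higher with arrays centred on their 75th percentile (0.36, adjusted p = 0.0205), with quantile normalization (0.30, adjusted p = 0.0454) and without the first resistant array (0.31, adjusted p = 0.0484, limma). The interval of the first difference leaves room for a small fall but not for one of the size seen in Ifit1 or Ifit3.

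The difference between IFIT genes was described by the log2 ratio of probe sets within each array. These ratios, and that of Mx2 to Mx1, were not planned. The Ifit1 to Ifit2 ratio rose by 1.28 ± 0.11 with rapamycin and changed by -4.34 ± 0.16 in the resistant line against DMSO. The Ifit3 to Ifit2 ratio did likewise, by 1.63 ± 0.13 and -4.68 ± 0.22. In each of these 4 cases the groups did not overlap. The exact two-sided permutation p was 0.1, the smallest that 3 against 3 arrays allow, and 0.15 after Benjamini-Hochberg adjustment over 12 ratios. The permutation test therefore cannot decide whether the IFIT genes differ in their response. The Ifit3 to Ifit1 ratio moved less, by 0.35 ± 0.09 with rapamycin (exact permutation p = 0.1) and by -0.34 ± 0.18 in the resistant line (p = 0.3, overlapping).

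The Ifit genes lie side by side on chromosome 19, Ifit2 first, then Ifit3, and Ifit1 last, with Ifit1bl1, Ifit3b and Ifit1bl2 between Ifit3 and Ifit1. Ifit2 and Ifit3 are thus direct neighbours with unlike signals. The related Ifit1bl1 and Ifit1bl2 were dim, at 75.4 and 34.1 in DMSO cells and 33.7 and 11.3 in the resistant line, and were not called (adjusted p = 0.0678 and 0.134, limma). On the Ifit2 side, Lipa, a lysosomal lipase, went from 428 to 348 (-0.29 ± 0.09, adjusted p = 0.0203, limma). On the Ifit1 side, Slc16a12 was below the filter, and Pank1, an enzyme of coenzyme A synthesis, rose from 247 to 344 (0.45 ± 0.13, adjusted p = 0.00715, limma).

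**Figure D3:**
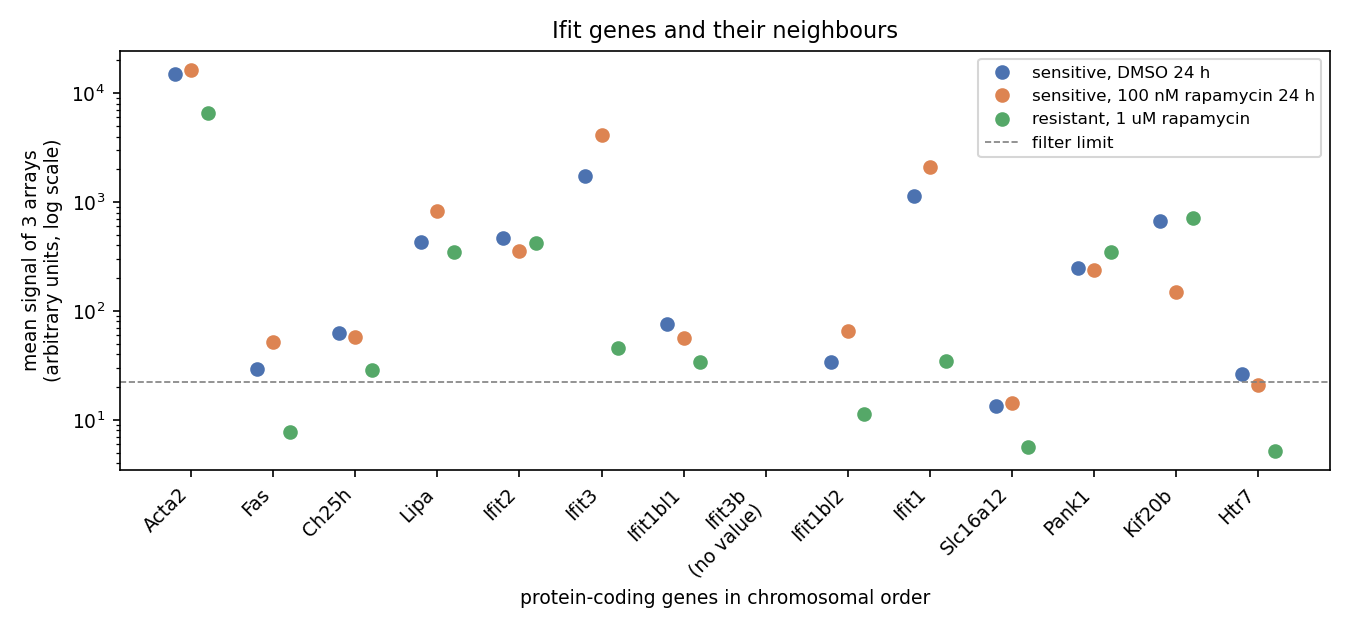
Mean signal of 3 arrays (log scale, arbitrary units) for Ifit genes and their protein-coding neighbours in chromosomal order, by the probe set with the highest mean; colours are the 3 groups, and the dashed line is the filter limit. Ifit3 and Ifit1 are the genes with the widest gap between sensitive and resistant cells among those drawn, while Ifit2, next to Ifit3, stays between 355 and 469.

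Rsad2, which encodes viperin, was read by 3 probe sets. The brightest, 1436058_at, gave 387, 267 and 319 in DMSO cells, 315, 175 and 238 with rapamycin and 15.1, 12 and 24.9 in the resistant line. DMSO and rapamycin arrays overlap, and the resistant arrays lie far below both. The other probe sets were dimmer: 1421008_at had means of 158 ± 24.7, 93.7 ± 19.2 and 31.0 ± 8.25, and 1421009_at had 121 ± 13.4, 72.2 ± 20.7 and 13.9 ± 3.95, in the same group order. In both of these the rapamycin arrays lie below the DMSO arrays.

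The drug's effect on Rsad2 did not pass the test on any of the 3 probe sets. The log2 changes were -0.42 ± 0.23 (adjusted p = 0.202) for 1436058_at, -0.67 ± 0.25 (adjusted p = 0.0532) for 1421008_at and -0.66 ± 0.29 (adjusted p = 0.103) for 1421009_at, all from limma. The mean of the 3 probe sets passed (-0.58, adjusted p = 0.047), as did 1421008_at in 6 alternatives, by adjusted p of 0.0263 to 0.0468. With no trend 1421009_at passed as well (-0.66, adjusted p = 0.0382, limma). No probe set of Rsad2 showed the rise seen in Ifit1 and Ifit3. In the resistant line all 3 were called lower than DMSO, by -3.36 ± 0.23, -1.89 ± 0.25 and -2.20 ± 0.29 (adjusted p = 3.24e-09, 7.05e-06 and 7.27e-06, limma). These were -4.20, -2.34 and -3.06 with a pseudocount of 1 and -2.25, -1.22 and -1.24 with 64. Cmpk2, a mitochondrial nucleotide kinase whose gene is the direct neighbour of Rsad2, had the same order of means: 211 in DMSO cells, 176 with rapamycin (-0.24 ± 0.22, adjusted p = 0.457) and 11.1 in the resistant line (-3.08 ± 0.22, adjusted p = 4.14e-09, limma).

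The Mx GTPases were dim. Mx1 (1451905_a_at), whose mouse protein acts in the nucleus, gave 46.2, 46.8 and 40.4 in DMSO cells, 33.9, 25.8 and 34.6 with rapamycin and 3.32, 5.11 and 21.4 in the resistant line. The groups do not overlap, but no resistant array was above the filter limit. The change with rapamycin was -0.35 ± 0.39 (adjusted p = 0.559, limma). Mx1 was lower in the resistant line than in DMSO cells by -1.28 ± 0.39 (adjusted p = 0.0125), a call that was lost without the first or the second resistant array (adjusted p = 0.0593 and 0.0508, limma); pseudocounts of 64 and 1 gave -0.56 and -2.43. Against the sensitive rapamycin cells it did not pass (-0.93 ± 0.39, adjusted p = 0.0595), but it did with a pseudocount of 1 (-1.94, adjusted p = 0.0372), with no trend (0.012), without the third resistant array (-1.23, adjusted p = 0.0333) and, through the variance shared in the fit, without the third DMSO array (adjusted p = 0.0375, limma).

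Mx2 (1419676_at), the cytoplasmic form, gave 68.2, 111 and 154 in DMSO cells, 101, 194 and 198 with rapamycin and 35.1, 4.52 and 3.48 in the resistant line. The sensitive groups overlap; the resistant arrays lie below them. The change with rapamycin, 0.51 ± 0.38, did not pass (adjusted p = 0.366), and the resistant line was lower by -2.16 ± 0.38 (adjusted p = 0.000176, limma; -1.15 and -3.46 with pseudocounts of 64 and 1). The Mx2 to Mx1 ratio changed by 0.86 ± 0.47 with rapamycin, with overlapping groups (exact permutation p = 0.2). With 3 against 3 arrays this test cannot give a p under 0.1, so it cannot decide whether the Mx genes differ in their response.

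Bst2 (1424921_at), tetherin, gave 1998, 1873 and 1499 in DMSO cells, 3764, 3279 and 3473 with rapamycin and 167, 156 and 154 in the resistant line. The groups do not overlap. Rapamycin nearly doubled the mean, from 1790 ± 260 to 3505 ± 245, a ratio of 1.96 (0.97 ± 0.10, adjusted p = 1.04e-06, limma). The resistant mean, 159 ± 6.93, was 11.3 times lower than DMSO (-3.36 ± 0.10, adjusted p = 8.72e-14, limma), with all 3 resistant arrays above the filter limit.

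Xaf1 was read by a bright and a dim probe set. The bright one, 1443698_at, gave 4387, 3359 and 2348 in DMSO cells, 5348, 4933 and 5263 with rapamycin and 42.0, 19.4 and 7.11 in the resistant line. The third DMSO array is the lowest sensitive value, and the rapamycin arrays lie above all DMSO arrays. The rise with rapamycin was 0.67 ± 0.24 (adjusted p = 0.0491, limma). It lost its call in 10 of 19 alternatives, among them without the third DMSO array (0.43, adjusted p = 0.21), without the second DMSO array (adjusted p = 0.088), without each rapamycin array in turn (0.132, 0.0973 and 0.117), and without the second resistant array (0.0539). In the resistant line it changed by -6.50 ± 0.24 against DMSO (adjusted p = 1.4e-12, limma) and by -7.16 ± 0.24 against sensitive rapamycin cells, with 1 of 3 resistant arrays above the filter limit; pseudocounts of 64 and 1 gave -5.28 and -7.40, and -5.94 and -8.07. The dim probe set, 1443621_at, had means of 74.7 ± 14.2, 89.7 ± 33.3 and 21.9 ± 12.3; it showed no call with rapamycin (0.19 ± 0.33, adjusted p = 0.735) and was lower in the resistant line (-1.30 ± 0.33, adjusted p = 0.00375, limma; -0.70 and -1.87 with pseudocounts of 64 and 1).

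Trim30a was read by 1451860_a_at, with 2203, 1970 and 1636 in DMSO cells, 2439, 2497 and 2433 with rapamycin and 8.73, 10.4 and 2.75 in the resistant line. Its other probe set, 1417961_a_at, gave 1604, 1439 and 1387, then 2137, 2093 and 1927, then 5.02, 8.45 and 37.9. On both, the rapamycin arrays lie just above the DMSO arrays and the resistant arrays are at the bottom of the scale. The changes with rapamycin were 0.35 ± 0.13 (adjusted p = 0.0551) and 0.47 ± 0.23 (adjusted p = 0.146, limma) and did not pass. The first changed its call in 9 of 19 alternatives: it passed with a pseudocount of 64 (adjusted p = 0.0131), quantile normalization (0.0457), 1 probe set per gene (0.0429), the mean of both probe sets (0.0149), the replicate block (0.0314) and only the 2 groups in the fit (0.0165). It also passed without the first DMSO array (0.45, adjusted p = 0.0327) and without the second or the third resistant array (0.35 in both, adjusted p = 0.0393 and 0.0197), and without the third DMSO array it was 0.24 (adjusted p = 0.21, limma). The second passed without the third resistant array (0.47, adjusted p = 0.00205), with a pseudocount of 64 (0.00813) and with only the 2 groups (0.000708, limma). The resistant line was lower by -6.39 ± 0.13 and -5.62 ± 0.23 (adjusted p = 2.09e-15 and 4.49e-12, limma), but 0 and 1 of 3 resistant arrays were above the filter limit, and the changes ran from -4.80 and -4.27 with a pseudocount of 64 to -8.01 and -6.82 with 1. A further probe set, 1456494_a_at, is annotated to both Trim30d and Trim30a and is no member; it gave 632, 503 and 471 in DMSO cells and 11, 16.8 and 14.3 in the resistant line. Trim30 genes are close paralogs, and their probe sets may share signal.

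**Figure D4:**
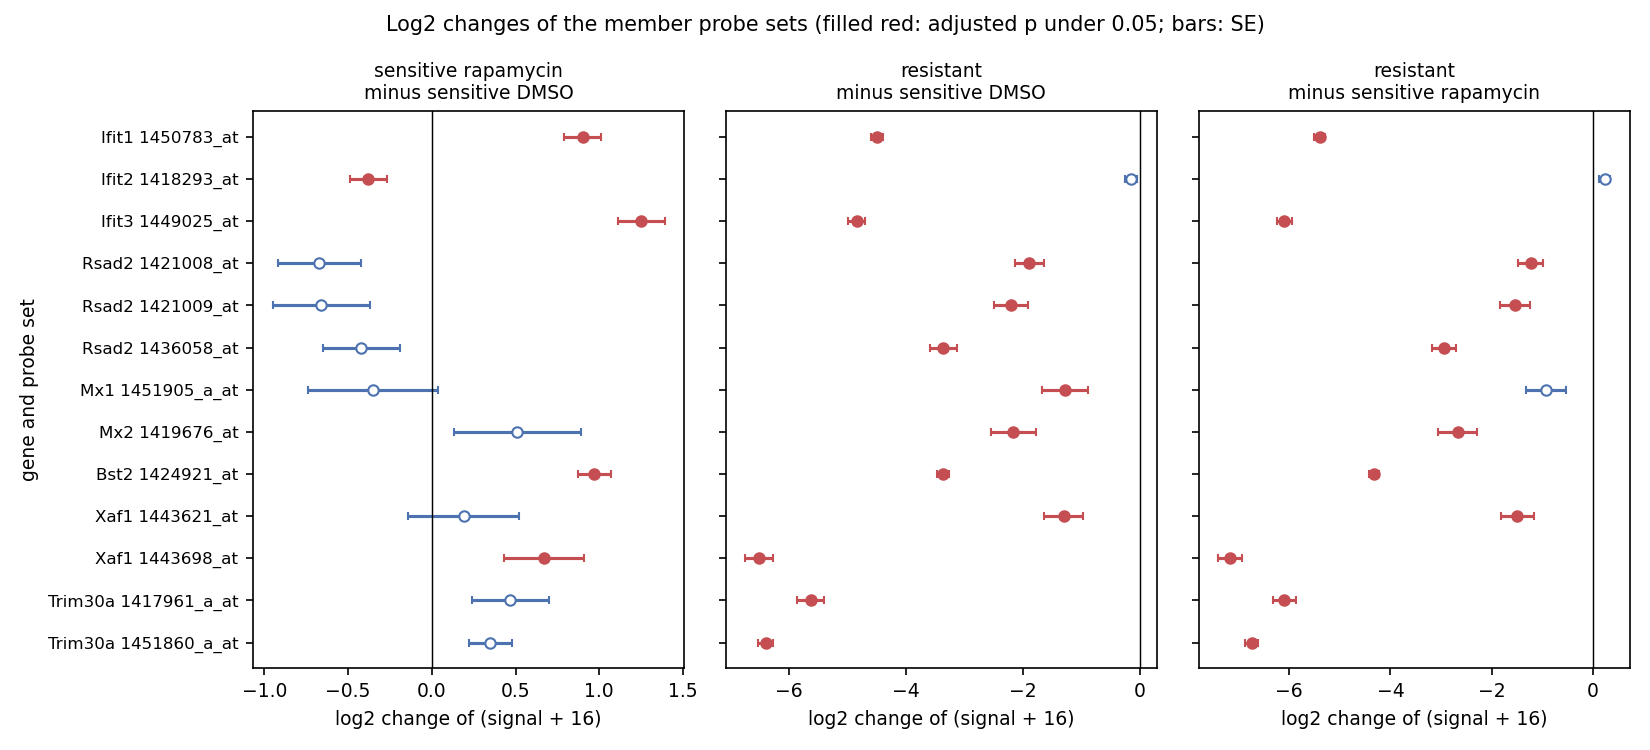
Log2 change of (signal + 16) of each member probe set in the 3 comparisons, with its standard error as a bar; filled red points have an adjusted p under 0.05, and the x axes differ between panels. With rapamycin the members spread from -0.67 to 1.25, and in the resistant line against DMSO from -6.50 to -0.15, Ifit2 standing at the upper end.

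The members' place in the interferon pathway was read from 5 further lists, which were chosen with earlier results of these data known. Of 83 listed genes 60 were tested, each by its brightest probe set. With rapamycin 26 rose and 1 fell, against 19.2% and 14.5% of 12715 genes (33.7% either way), with a median of 0.34 against 0.03. The resistant line had 40 lower and 1 higher than DMSO cells, against 25.3% and 25.5% (50.8% either way), with a median of -1.22 against -0.07. Against sensitive rapamycin cells 46 were lower and none higher, where 29.9% and 25.9% of all genes were (55.7% either way). The largest differences in that comparison were those of Ifngr1 (-1.79) and Il10rb (-1.69) among receptors, Irf7 (-4.69), Irf9 (-3.52), Stat2 (-3.28) and Irf1 (-1.25) among factors, Usp18 (-6.85) and Socs3 (-1.89) among inhibitors, and Ifi27l2a (-7.05), Rtp4 (-6.31), Trim12c (-5.12) and Trim30d (-4.92) among effectors. Resistant means were below the filter limit of 22.2 for Usp18 (11.5), Ifi27l2a (14.7) and Trim30d (8.07). They were just above it for Irf7 (24.4), Stat2 (25.8) and Trim12c (27.1), and the other named genes stood higher. The size and order of changes that end near the limit depend on the pseudocount, as for the members.

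Of the ligands only Ifnb1 and Ifnab were bright enough to be tested, and neither was called in any comparison; Ifnb1 had mean signals of 41.2, 13.5 and 32.2 in DMSO, sensitive rapamycin and resistant cells. Of 8 receptor chains and kinases 5 rose with rapamycin, against 19.2% of all genes. Among them were the type I interferon receptor chains Ifnar1 (0.70 ± 0.11) and Ifnar2 (0.44 ± 0.10) and the kinases Jak2 (0.63 ± 0.13) and Jak1 (0.45 ± 0.08). Lower in the resistant line than in DMSO cells were 4 of the 8, against 25.3% of all genes: the interferon gamma receptor chain Ifngr1 (-1.58 ± 0.11), Il10rb (-1.25 ± 0.10), Jak2 (-0.62 ± 0.13) and Jak1 (-0.38 ± 0.08). Ifnar1 and Ifnar2 were not called there (-0.12, adjusted p = 0.387, and 0.12, adjusted p = 0.35, limma).

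Of 7 tested transcription factors, Stat2 (0.84 ± 0.19) and Irf7 (0.54 ± 0.13) rose with rapamycin and Irf5 fell (-0.43 ± 0.14), where 19.2% of all genes rose and 14.5% fell. Resistant cells had 4 of them lower than DMSO cells, against 25.3% of all genes. They were Irf7, the amplifier of the interferon response (-4.15 ± 0.13, from 698 to 24.4), Irf9 (-3.48 ± 0.12, from 718 to 49.8), Stat2 (-2.44 ± 0.19, from 208 to 25.8) and Irf1 (-0.93 ± 0.13). Irf9 and Stat2 act together on the ISRE. Irf3, which is activated by viral sensors, was not called (0.10 ± 0.10, adjusted p = 0.474, limma).

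Among 7 feedback inhibitors, the coregulator Trim24 alone rose with rapamycin (0.52 ± 0.11), where 19.2% of all genes rose. The resistant line had Usp18 (-6.45 ± 0.15), Socs3 (-1.58 ± 0.14) and the phosphatase Ptpn2 (-0.40 ± 0.08) lower than in DMSO cells, where 25.3% of all genes were lower. The other 4 were not called, Socs1 at 0.00 ± 0.30 among them. The resistant Usp18 mean of 11.5 was below the filter limit, so the size of its change depends on the pseudocount. Against sensitive rapamycin cells Trim24 (-0.63 ± 0.11) was lower as well.

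Of 36 other antiviral effectors 18 rose with rapamycin and none fell, against 19.2% and 14.5% of all genes. Slfn5 (1.22 ± 0.26), Trim12c (0.89 ± 0.16), Lgals3bp (0.78 ± 0.10) and Parp14 (0.76 ± 0.22) changed most. Lower in the resistant line than in DMSO cells were 29, against 25.3% of all genes. The largest changes were Ifi27l2a at -6.45 ± 0.15, Rtp4 at -5.87 ± 0.08, Trim30d at -4.51 ± 0.21 and Trim12c at -4.22 ± 0.16. Ifi27l2a and Trim30d had resistant means below the filter limit (14.7 and 8.07), so the size and order of these changes depend on the pseudocount. Zc3hav1, the zinc finger antiviral protein, was the 1 called higher (0.34 ± 0.12, adjusted p = 0.0292, limma). Ifitm2, which blocks virus entry, was not called (0.08 ± 0.08, adjusted p = 0.478), so Ifit2 was not the only effector near its DMSO level.

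**Figure D5:**
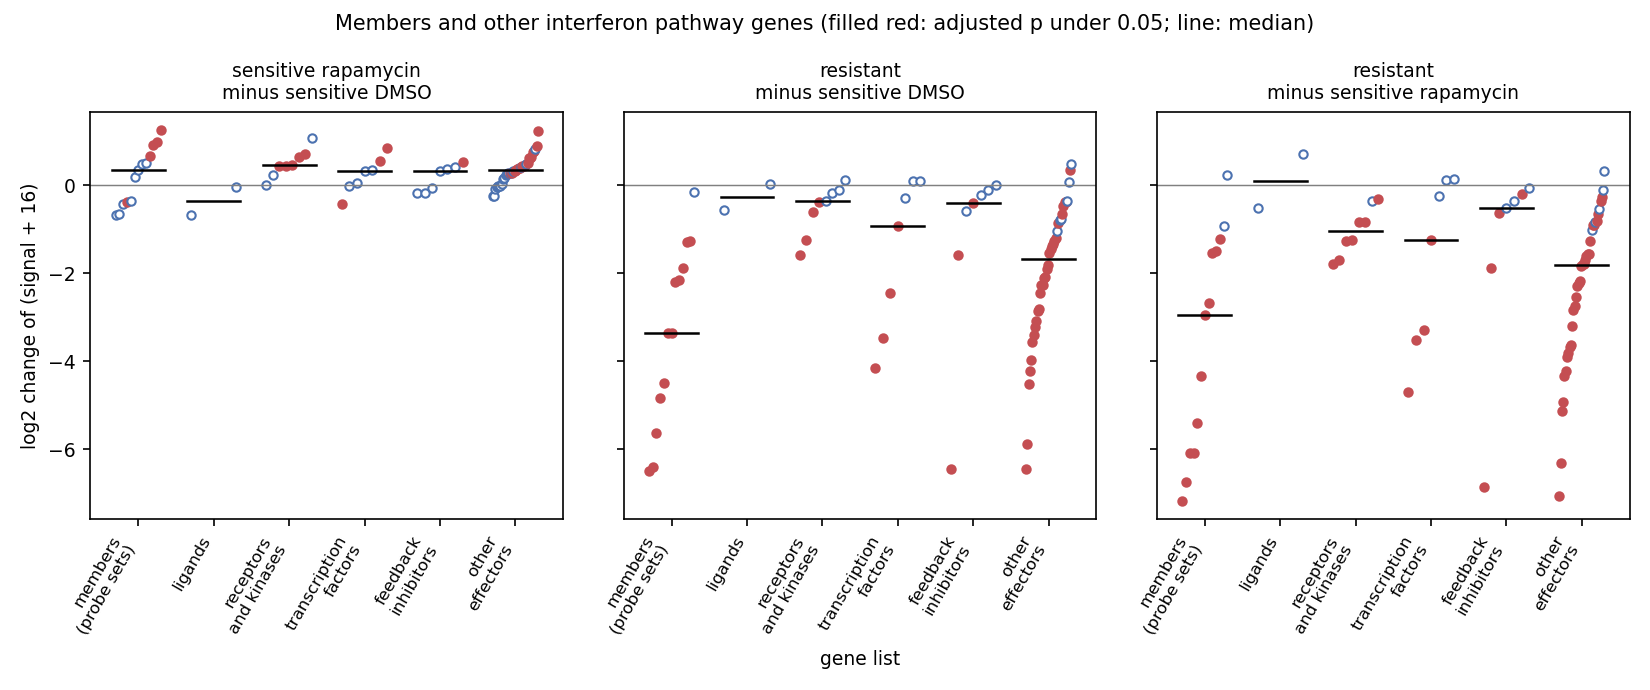
Log2 change of (signal + 16) of the 13 member probe sets and of the tested genes of 5 interferon pathway lists in the 3 comparisons; each point is a probe set or gene, filled red where the adjusted p was under 0.05, and the black line is the list's median. In the resistant line members, other effectors and the feedback inhibitor Usp18 reach below -6, while receptors and kinases stay above -2.

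The genes most like the members in profile were found by correlating each gene's 9 array values with the mean of the members' standardised values. Leaving out members and clone, expressed sequence tag and predicted-gene names, they were Fkbp14 (r = 0.999), Fez2 (0.998), and Maged2, Drg1, Capg and Taldo1 (0.997 each), over 9 arrays. The value is a description, and the arrays share the step from sensitive to resistant cells: Fkbp14 had mean signals of 1072, 1006 and 195 in DMSO, sensitive rapamycin and resistant cells, and Taldo1 had 2506, 2454 and 1524. Of the members themselves, Trim30a (0.990) and Rsad2 (0.989) followed that mean most closely and Ifit2 (-0.016) did not follow it. Each member is part of the mean it is set against, so a high r is partly built in.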

How the data were processed

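Total RNA of 9 samples was measured on Affymetrix arrays. The authors deposited, for every array, an intensity (signal) on a linear scale for each probe set, from GCOS 1.4 per the submitters' processing notes; the summary method is not given in the sources used here, nor are detection calls or scan batches. The mean of each array, leaving out 2% at either end, is 250, taken from the values. Genes were named from the platform annotation, only where a probe set has 1 symbol (34945 of 45037 probe sets without controls).

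Signals were used as log2(signal + 16) without rescaling, since the 75th percentiles of the arrays differed by 0.17, under a limit of 0.2. Probe sets above the 40th percentile of the mean were kept. With limma 3.58.1 (R 4.3.3, eBayes with trend), 1 mean was fitted for each of the 3 groups, using every array, and p-values were adjusted by Benjamini-Hochberg over all tested probe sets in each comparison. A change on this scale understates that of dim genes, and the number of arrays limits precision. Named genes were all members, up to 4 called genes of each list with the largest change per comparison, and the 6 genes closest in profile; genes next to Ifit and Rsad2, Zc3hav1, Ifitm2, Irf3, Ifnar1 and Ifnar2 in the resistant line, and Socs1 were added after values were seen. The members and lists were chosen with earlier results of these data known. Alternatives covered the pseudocount, filter, scaling, trend, probe set summary, replicate block, samples in the fit and each left-out array. A planned comparison of protein sequences was not used here.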

Additional observations from a re-analysis of the deposited data

How the results depend on the processing

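No called member value changed sign in any alternative run. Of 717 values of single member probe sets under alternatives, 674 kept their side of the threshold, 16 lost a call and 27 gained one, of which 14 lost and 20 gained calls belong to the drug comparison of sensitive cells. There, the 5 called member probe sets became 8 with a pseudocount of 64 (6 higher, 2 lower) and 8 with only the 2 groups compared in the fit (6 higher, 2 lower), and ran from 3 to 7 when single arrays were left out; it was 3 without the second DMSO array and 3 without the second rapamycin array. Rsad2 1421008_at passed there with a pseudocount of 64 (adjusted p = 0.0263), centring on the 75th percentile (0.0402), quantile normalization (0.0347), no trend (0.035), only the 2 groups (0.0418) and without the first resistant array (0.0468). In the resistant line against DMSO 11 to 12 member probe sets were called with single arrays left out, and against sensitive rapamycin cells 11 to 12.

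With 1 probe set per gene, or their mean per gene, the members are 9 genes and 7 were lower in the resistant line than in sensitive rapamycin cells, both ways; 8 were lower than in DMSO cells, both ways, and with the drug 6 were called (5 higher, 1 lower) and 7 (5 higher, 2 lower), against 5 of 13 probe sets. The counts over all features then change because genes are counted: 4523 and 3925 of 12715 genes for the drug comparison (7574 probe sets), 6581 and 5991 for the resistant line against DMSO (11819), and 7186 and 6719 for the resistant line against sensitive rapamycin cells (12885). Centring on the 75th percentile moved the median change of all probe sets in that last comparison from -0.08 to 0.05, and Ifit2 then passed (0.36, adjusted p = 0.0205), as with quantile normalization (0.30, adjusted p = 0.0454). Calls in the 5 pathway lists ran from 19 to 30 for the drug, 41 to 44 for the resistant line against DMSO and 41 to 49 against sensitive rapamycin cells.

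Same-numbered arrays did not deviate together (r from -0.078 to 0.011 over 9 pairs), so the numbers were not taken as pairing. With the replicate number as a block, member probe sets called were 6, 12 and 11 in the 3 comparisons, all tested probe sets called were 7294, 11508 and 12677, and pathway genes called were 28, 41 and 46; 1 of 39 member calls changed, Trim30a 1451860_a_at with rapamycin (adjusted p = 0.0314). Signals near the filter limit bound what can be said of the resistant line: 3 member probe sets had no resistant array above it and 5 more had 1.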
